A study of Mus musculus with 4 samples.

Results

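The transcripts of T, NK and B cells were measured in injured mouse liver through 10 marker genes, taken by gene name from the deposited expression table of all 4 libraries. Of these genes, 9 were listed among the 13903 genes of the table: Cd3e, Cd3g, Cd4 and Cd8a for T cells, Nkg7 and Gzma for NK and cytotoxic cells, Cd79a and Cd79b for B cells, and Jchain for plasma cells. Ms4a1, which encodes the B cell protein CD20, was not analysed here. The livers came from OGT-Floxed mice of the C57BL/6J background, all fed the CDE diet, which is deficient in choline, contains ethionine and injures hepatocytes. The OGT-KO label stands for AAV8-TBG-CRE and the control label for AAV8-TBG-eGFP, and livers were taken with no recovery after the diet or 7 days later. RNA of 3 mice was pooled equally into 1 library for each of these 4 conditions, so the spread between mice could not be measured. The TBG promoter is active in hepatocytes, and the vectors therefore direct Cre or eGFP to hepatocytes and not to lymphocytes.

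Ogt, the targeted gene, encodes the enzyme that adds N-acetylglucosamine to proteins. Its level was 55.3 CPM, the reads of a gene per 1000000 reads on listed genes, in the OGT-KO-labelled library without recovery and 64.7 CPM in the control, a log2 difference of -0.22. After 7 days it was 77.7 CPM in the OGT-KO-labelled library and 55.7 CPM in the control, a log2 difference of 0.48. The second value goes against the label, and under scaling by the median ratio between libraries it was -0.20. By limma over both time points the difference was 0.13 on the log2 scale, with an adjusted p of 0.555, while median ratio scaling turned it to -0.57 (limma, adjusted p = 0.0374, the lowest of 10 fits that reached up to 0.561). The table gives 1 value for the whole gene, so reads from exons that Cre leaves in place are part of it. The libraries are therefore named by their labels throughout.

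T cells recognise antigen through a receptor that signals by way of the CD3 chains, and CD4 and CD8 are the coreceptors that divide helper from cytotoxic T cells. NK cells and cytotoxic T cells kill targets by releasing granules that hold granzymes. B cells signal through the antigen receptor chains CD79A and CD79B, and plasma cells, the secreting stage of the B lineage, make the J chain that joins IgA and IgM into polymers. In liver, lymphocytes lie in the sinusoids and portal tracts and increase in many forms of chronic injury.

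The libraries held 19972699 to 22866431 reads on listed genes. All deposited values were whole multiples of the value of 1 read, so that read numbers were recovered and are given below beside CPM. A count of 0 allows a level of up to 0.131 to 0.15 CPM, taken as 3 reads, and the intervals given are exact 95% intervals that cover counting error only. Of all genes, 0.09% and 0.17% had no reads in the OGT-KO-labelled libraries with no recovery and after 7 days, against 1.72% and 1.99% in the controls. Albumin (Alb), the main secreted product of hepatocytes, was at 41400 to 54400 CPM in the 4 libraries. In RNA of whole tissue, fewer cells of a type and less RNA per cell cannot be told apart.

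All 9 listed markers were low. Their summed level was 27.1 CPM (25.0 to 29.3) in the OGT-KO-labelled library without recovery and 7.01 CPM (5.93 to 8.23) in the control, a ratio of 3.87 (3.23 to 4.66). After 7 days the sum was 20.1 CPM (18.3 to 22.0) in the OGT-KO-labelled library and 4.46 CPM (3.58 to 5.48) in the control, a ratio of 4.5 (3.58 to 5.72). Much of the sum was Jchain, and Cd4 behaved unlike the rest. Without these genes the remaining 7 markers had 229 and 59 reads with no recovery, a ratio of CPM of 3.61 (2.7 to 4.89), and 137 and 28 reads after 7 days, a ratio of 4.33 (2.87 to 6.76).

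**Figure D1:**
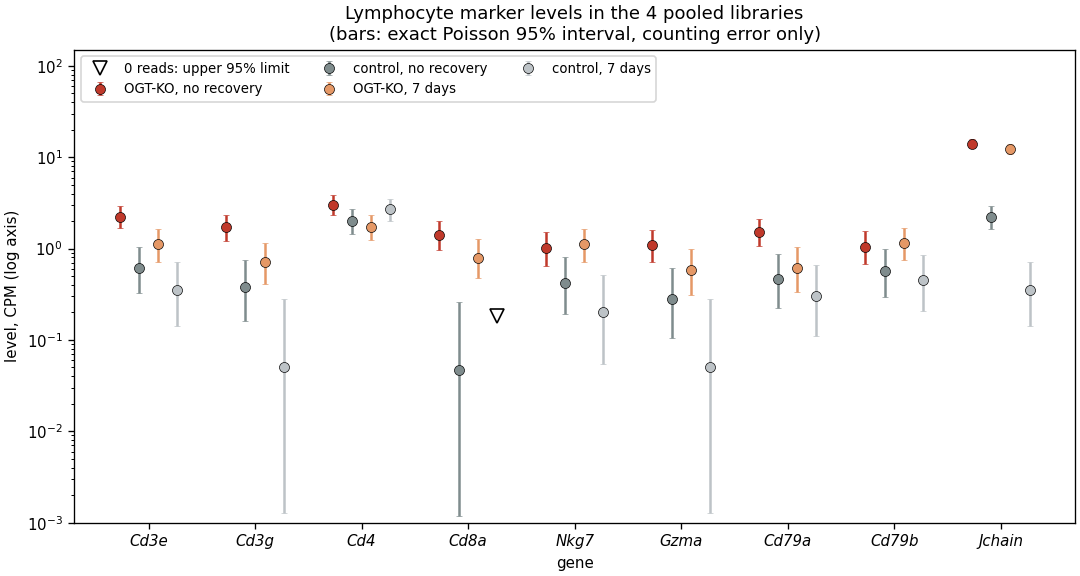
Level of each marker gene in CPM on a log axis in the 4 libraries, with exact Poisson 95% intervals for counting error, and an open triangle for the upper limit where no read was found. Of the 9 genes, 8 lay above both controls in both OGT-KO-labelled libraries, Cd4 did not, and Jchain was at 14.1 and 12.3 CPM in the OGT-KO-labelled libraries.

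A gene was called higher or lower at a 2-fold difference of log2(CPM + 0.5), on which changes of low genes come out smaller than they are. With no recovery, 6 of the 9 markers were higher in the OGT-KO-labelled library and 0 were lower, while 36.8% of the 13658 genes that averaged 0.5 CPM or more were higher and 4.78% lower. After 7 days 4 of 9 were higher and 0 lower, against 35.7% and 3.51% of all genes. In both controls Cd3g, Cd8a, Nkg7, Gzma and Cd79a were under 0.5 CPM, and they passed the filter through the OGT-KO-labelled libraries. With 0.5 CPM added, genes this low in the controls could not be called lower at 2-fold between the labels. This holds too for such genes in the lists and among all genes. Cd3g, Cd8a and Jchain were higher at both time points, which held for 30.7% of all genes and 51.8% of those at 0.5 to 10 CPM. Among the 4695 genes at 0.5 to 10 CPM, the range in which all 9 markers lie, the shares higher were 59.1% without recovery and 59.2% after 7 days, so the number of markers past 2-fold was near that of other low genes. The 8 markers that did not overlap between the labels, the exception being Cd4, likewise compare with 74.2% of all genes and 82.3% of the low ones.

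The median log2 difference of the 9 markers was 1.07 without recovery and 0.97 after 7 days, and the latter was the same with Cd8a, which had no reads in 1 control, set to 3 reads. All genes tested had medians of 0.70 and 0.66 on this scale, below those of the markers, while the 4695 genes at 0.5 to 10 CPM had medians of 1.25 and 1.30, above them. Scaling the libraries by their median ratio brought the medians of all genes to 0.02 and 0.01. The direction given for a marker is therefore that of its share of the library, and differences are also given relative to the median of all genes and of the genes at 0.5 to 10 CPM, which in the limma fit below was 1.30. Under median ratio scaling Cd4 changed direction with no recovery, and the other 8 markers kept theirs under this and upper quartile scaling at both time points. Over both time points, limma with time as a covariate called 6 of 9 markers higher in the OGT-KO-labelled libraries and 0 lower, against 62.1% of all genes higher and 8.88% lower. Here too the markers under 0.5 CPM in both controls could hardly be called lower. Without the filter limma called the same 6. With median ratio scaling limma called 3 of 9 (30.1% of all genes higher, 26.7% lower), the edgeR quasi-likelihood test 3 (30.4% and 24.6%) and DESeq2 2 (22.1% and 19.3%). The p-values rest on 1 residual degree of freedom, which is the departure from equal label differences at the time points. To this limma added 5.35 prior degrees of freedom taken from all genes, so most of each variance was borrowed. The edgeR and DESeq2 fits also share spread among genes. Spread between replicate pools was not measured.

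**Figure D2:**
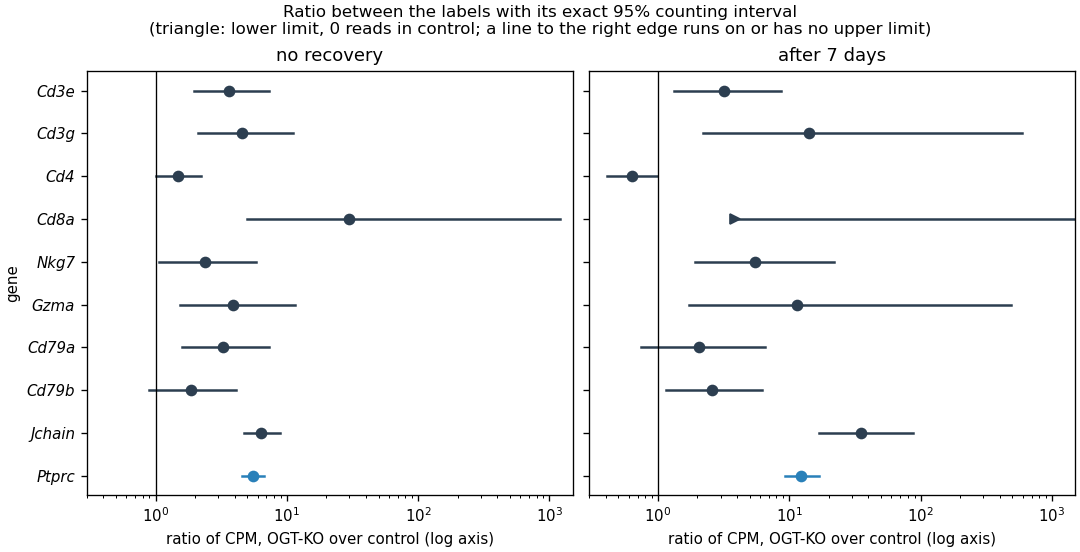
Ratio of CPM in the OGT-KO-labelled library over the control for each marker and for Ptprc on a log axis, with no recovery on the left and after 7 days on the right, where points are ratios and lines exact 95% counting intervals. The ratio of Jchain was 6.37 without recovery and 35.0 after 7 days, and that of Cd4 was on opposite sides of 1, at 1.49 and 0.639.

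Among the T cell genes, both CD3 chains and Cd8a lay above both controls in both OGT-KO-labelled libraries, and Cd4 did not. Of the CD3 chains, Cd3g passed 2-fold at both time points and Cd3e with no recovery, with a log2 difference of 0.92 after 7 days. Cd3e, which encodes the epsilon chain of CD3, had 51 reads in the OGT-KO-labelled library and 13 in the control with no recovery (2.23 and 0.612 CPM), and 25 and 7 reads after 7 days (1.11 and 0.35 CPM). Both OGT-KO-labelled libraries lay above both controls, at a ratio of 3.65 (1.96 to 7.31) without recovery and 3.16 (1.33 to 8.65) after 7 days. Cd3g, the gamma chain, had 39 and 8 reads with no recovery (1.71 and 0.376 CPM), and 16 reads and 1 read after 7 days (0.709 and 0.0501 CPM). Its ratios were 4.53 (2.09 to 11.2) and 14.2 (2.2 to 594), and the second rests on a single control read. There were 0.765 Cd3g reads per Cd3e read (0.491 to 1.18) in the OGT-KO-labelled library without recovery and 0.615 (0.221 to 1.6) in its control, and after 7 days 0.64 (0.319 to 1.25) and 0.143 (0.00317 to 1.11). The change between labels was a factor of 1.24 (0.426 to 3.82) and 4.48 (0.484 to 214), and at this depth a difference in the proportion was not detectable.

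Cd8a, the alpha chain of the coreceptor of cytotoxic T cells, had the largest ratio between the labels of the T cell markers with no recovery. There were 32 reads in the OGT-KO-labelled library with no recovery against 1 in the control (1.4 and 0.047 CPM), a ratio of 29.7 (4.97 to 1210). After 7 days there were 18 reads against 0, and the exact interval of the ratio has a lower limit of 3.89. The level of 0.798 CPM is 5.31-fold that of the 3 reads, or 0.15 CPM, taken for a count of 0. This second value leaves out the counting error of the 18 reads. The controls thus held 1 read of Cd8a in all.

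Cd4, the coreceptor of helper T cells, which some dendritic cells also express, followed another course. It had 69 reads in the OGT-KO-labelled library without recovery and 43 in the control (3.02 and 2.02 CPM), but 39 in the OGT-KO-labelled library and 54 in the control after 7 days (1.73 and 2.7 CPM). The labels overlapped, since the control after 7 days lay above the OGT-KO-labelled library of the same time. The ratio was 1.49 (1.0 to 2.24) without recovery and 0.639 (0.412 to 0.983) after 7 days, and the second ratio was 0.428 of the first (0.235 to 0.779). Of all genes tested, 8.61% had opposite signs at the time points. Under median ratio scaling Cd4 was lower in the OGT-KO-labelled library at both time points, with log2 differences of -0.12 and -1.08.

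Within a library, where scaling cancels, Cd8a and Cd4 stood in different proportions under the 2 labels. These are proportions of reads, and the cells that the Cd4 reads came from were not tested. There were 0.464 Cd8a reads per Cd4 read (0.295 to 0.715) in the OGT-KO-labelled library without recovery and 0.462 (0.249 to 0.826) in that after 7 days. In the controls the value was 0.0233 (0.000576 to 0.137) without recovery and 0 with an upper limit of 0.0707 after 7 days. Cd4 reads per Cd3e read were 1.35 (0.929 to 1.98) and 1.56 (0.921 to 2.69) in the OGT-KO-labelled libraries, and 3.31 (1.75 to 6.7) and 7.71 (3.5 to 20.1) in the controls. The change between labels was a factor of 0.409 (0.183 to 0.877) without recovery and 0.202 (0.0677 to 0.549) after 7 days. The summed T cell markers show what Cd4 contributes. With Cd4 the ratio between labels was 2.73 (2.05 to 3.68) without recovery and 1.4 (1.01 to 1.96) after 7 days, and without it 5.16 (3.26 to 8.53) and 6.53 (3.11 to 15.8).

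In the limma fit over both time points, Cd8a was higher in the OGT-KO-labelled libraries by 1.59 on the log2 scale (SE 0.29, adjusted p = 0.0033), which is 0.91 above the median gene and 0.28 above that of the genes at 0.5 to 10 CPM, although its fitted value depends on the 0.5 CPM added to each level. Cd3g was higher by 1.23 (SE 0.28, limma adjusted p = 0.00744) and Cd3e by 1.11 (SE 0.28, limma adjusted p = 0.0112), or 0.55 and 0.43 above the median gene, and -0.07 and -0.19 relative to the genes at 0.5 to 10 CPM. The value for Cd4 was -0.02 (SE 0.31, limma adjusted p = 0.953). On the recovered reads, the edgeR quasi-likelihood test gave adjusted p = 0.00731 for Cd8a, 0.04 for Cd3g, 0.0777 for Cd3e and 0.209 for Cd4, so the call of Cd3e was lost. DESeq2 called Cd8a (adjusted p = 0.0341) and not Cd3g (adjusted p = 0.214). Over 9 fits by limma, edgeR and DESeq2, adjusted p ran from 0.00242 to 0.0341 for Cd8a, 0.00709 to 0.214 for Cd3g, 0.0109 to 0.431 for Cd3e and 0.146 to 0.961 for Cd4.

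The sequences just before the start sites of Cd3e and Cd8a are shown as the T cell genes with the most reads among the CD3 chains and with the largest ratio. They are RefSeq windows of 250 bases on GRCm38.p6, written in the direction of transcription and ending at the base before the start, at chr9:45009612-45009861 on the minus strand for Cd3e and chr6:71373177-71373426 on the plus strand for Cd8a. Of the 9 listed markers 7 had a RefSeq entry, all but Cd4 and Cd79b.
Cd3e: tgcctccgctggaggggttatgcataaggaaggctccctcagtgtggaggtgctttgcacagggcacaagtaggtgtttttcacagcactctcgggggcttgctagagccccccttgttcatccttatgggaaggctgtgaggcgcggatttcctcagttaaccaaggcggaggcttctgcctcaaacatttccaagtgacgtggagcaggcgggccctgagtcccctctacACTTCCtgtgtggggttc
Cd8a: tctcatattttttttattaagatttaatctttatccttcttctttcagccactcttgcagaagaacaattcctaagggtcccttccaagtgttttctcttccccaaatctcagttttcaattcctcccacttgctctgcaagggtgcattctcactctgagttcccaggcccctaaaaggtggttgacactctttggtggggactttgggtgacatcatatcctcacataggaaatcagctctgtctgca
Capitals mark matches, on either strand, to 5 motifs that factors of lymphocytes or general transcription are known to bind: the octamer ATGCAAAT, the EBF half-sites CCCNNGGG, the RUNX core TGTGGT, the TATA box TATAAA and the ETS core GGAAGT. The match in Cd3e is an ETS core on the opposite strand, 18 bases before the start, and 19.7% of 32851 promoter windows of this length hold 1 or more. The window of Cd8a holds none of the 5, as does that of Cd3g. A match describes letters in the window and not a bound site.

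The cytotoxic granule genes also lay above both controls in both OGT-KO-labelled libraries. Nkg7, a membrane protein of cytotoxic granules, had 23 reads in the OGT-KO-labelled library without recovery and 9 in the control (1.01 and 0.423 CPM), and 25 and 4 reads after 7 days (1.11 and 0.2 CPM). Its ratios were 2.38 (1.06 to 5.83) and 5.53 (1.91 to 21.9). Gzma, the serine protease granzyme A, had 25 and 6 reads with no recovery (1.09 and 0.282 CPM), and 13 reads and 1 read after 7 days (0.576 and 0.0501 CPM). The lower level of Gzma in the OGT-KO-labelled library after 7 days was still above the control with no recovery, and the ratios were 3.87 (1.55 to 11.5) and 11.5 (1.73 to 489). Summed, both genes reached 2.1 and 0.706 CPM with no recovery, a ratio of 2.97 (1.64 to 5.72), and 1.68 and 0.25 CPM after 7 days, a ratio of 6.73 (2.64 to 21.9).

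By limma over both time points the difference was 0.95 for Nkg7 (SE 0.29, adjusted p = 0.0241) and 1.0 for Gzma (SE 0.28, adjusted p = 0.0176), which is 0.27 and 0.32 above the median gene, and -0.35 and -0.30 relative to the genes at 0.5 to 10 CPM. Neither call held under median ratio scaling (limma adjusted p = 0.155 and 0.0873) nor with the edgeR quasi-likelihood test (adjusted p = 0.144 and 0.072), and over the 9 fits by limma, edgeR and DESeq2 adjusted p ran from 0.0233 to 0.51 and from 0.0167 to 0.347. The windows before both genes are shown because they share a motif, at chr7:43436888-43437137 on the plus strand for Nkg7 and chr13:113100982-113101231 on the minus strand for Gzma (GRCm38.p6).
Nkg7: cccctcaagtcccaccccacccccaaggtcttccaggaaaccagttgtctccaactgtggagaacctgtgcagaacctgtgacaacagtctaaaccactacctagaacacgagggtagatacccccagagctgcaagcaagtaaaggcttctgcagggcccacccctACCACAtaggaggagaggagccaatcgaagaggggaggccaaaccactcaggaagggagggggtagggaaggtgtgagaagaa
Gzma: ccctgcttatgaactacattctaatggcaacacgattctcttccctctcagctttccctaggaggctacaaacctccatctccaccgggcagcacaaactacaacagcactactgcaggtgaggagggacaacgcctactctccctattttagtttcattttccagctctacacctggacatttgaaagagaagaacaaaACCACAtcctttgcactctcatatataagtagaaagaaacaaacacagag
Both hold a RUNX core on the opposite strand, 83 bases before the start in Nkg7 and 50 in Gzma, as do 14.0% of all promoter windows. No other of the 7 markers holds one in its window.

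The B cell receptor genes lay above both controls in both OGT-KO-labelled libraries as well, at ratios of 1.86 to 3.25. Cd79a, the alpha chain of the receptor's signalling pair, had 35 reads in the OGT-KO-labelled library without recovery and 10 in the control (1.53 and 0.47 CPM), and 14 and 6 reads after 7 days (0.62 and 0.3 CPM). Its ratios were 3.25 (1.58 to 7.37) and 2.07 (0.745 to 6.56), the second with an interval that includes 1. Cd79b, the beta chain, had 24 and 12 reads with no recovery (1.05 and 0.564 CPM), and 26 and 9 reads after 7 days (1.15 and 0.451 CPM). Here the order was the other way, with an interval that includes 1 at no recovery, and the ratios were 1.86 (0.894 to 4.08) and 2.56 (1.16 to 6.2). The sum of both chains had ratios of 2.49 (1.5 to 4.27) and 2.36 (1.28 to 4.6).

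Neither chain passed the test over both time points. The limma difference was 0.78 for Cd79a (SE 0.29, adjusted p = 0.052) and 0.67 for Cd79b (SE 0.27, adjusted p = 0.065), which is 0.10 and -0.01 relative to the median gene, and -0.53 and -0.63 relative to the genes at 0.5 to 10 CPM. The lowest adjusted p over the 9 fits by limma, edgeR and DESeq2 was 0.0506 and 0.0597. There were 0.686 Cd79b reads per Cd79a read (0.39 to 1.19) in the OGT-KO-labelled library without recovery and 1.86 (0.935 to 3.85) after 7 days. In the controls the proportion was 1.2 (0.475 to 3.1) and 1.5 (0.477 to 5.12). The change with time under the OGT-KO label was 2.71 (1.09 to 6.8), from 14 to 35 reads per value and with counting error only. Between labels the change was 0.571 (0.189 to 1.72) without recovery and 1.24 (0.296 to 4.87) after 7 days, and both intervals include 1. The window before Cd79a, at chr7:24897247-24897496 on the plus strand of GRCm38.p6, holds an ETS core 54 bases before the start. It holds neither the octamer, which 1.6% of all windows hold, nor the exact EBF letters CCCNNGGG, which 11.8% hold. Other forms of the EBF site were not searched, so the absence of these letters does not show that the window lacks such a site.
Cd79a: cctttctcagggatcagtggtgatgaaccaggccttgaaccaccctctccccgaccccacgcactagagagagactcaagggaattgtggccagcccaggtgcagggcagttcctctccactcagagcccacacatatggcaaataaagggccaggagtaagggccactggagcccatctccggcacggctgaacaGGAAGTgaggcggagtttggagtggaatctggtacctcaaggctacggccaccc

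Jchain, which encodes the joining chain of polymeric IgA and IgM, had the highest level of the 9 markers per kilobase of exon in 3 of the 4 libraries, the exception being the control after 7 days. It had 322 reads in the OGT-KO-labelled library without recovery and 47 in the control (14.1 and 2.21 CPM), and 277 and 7 reads after 7 days (12.3 and 0.35 CPM). The OGT-KO-labelled libraries lay close together, far above both controls, and the control after 7 days was the lowest. The ratio between labels was 6.37 (4.68 to 8.84) without recovery and 35.0 (16.8 to 87.9) after 7 days, so that the second was 5.5 times the first (2.41 to 14.6). By limma the difference over both time points was 3.17 on the log2 scale (SE 0.37, adjusted p = 0.000544), or 2.49 above the median gene and 1.87 above that of the genes at 0.5 to 10 CPM. Jchain was also called with median ratio scaling (limma adjusted p = 0.00182), by the edgeR quasi-likelihood test (adjusted p = 0.00584) and by DESeq2 (adjusted p = 1.44e-06).

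Set against the B cell receptor chains, Jchain had 5.46 reads per read of Cd79a and Cd79b (4.12 to 7.33) in the OGT-KO-labelled library without recovery and 6.92 (4.96 to 9.91) after 7 days. The control values were 2.14 (1.26 to 3.72) and 0.467 (0.161 to 1.22). The proportion thus differed between labels by a factor of 2.55 (1.36 to 4.69) without recovery and 14.8 (5.24 to 45.2) after 7 days. The window before Jchain is printed as that of the marker with the highest level per kilobase in the OGT-KO-labelled libraries, at chr5:88527898-88528147 on the minus strand (GRCm38.p6), and holds none of the 5 motifs. The exact letters TATAAA, present in 12.4% of all windows, were in 0 of the 7. Other forms of the TATA box were not searched, and the window of Gzma holds tatataag close to the start.
Jchain: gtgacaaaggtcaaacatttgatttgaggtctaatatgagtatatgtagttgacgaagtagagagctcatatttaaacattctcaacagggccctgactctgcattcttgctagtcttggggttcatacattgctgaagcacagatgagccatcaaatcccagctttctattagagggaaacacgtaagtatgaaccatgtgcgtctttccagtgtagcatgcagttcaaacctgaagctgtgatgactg

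Levels of the markers were set in order per kilobase of annotated exon. In the OGT-KO-labelled library with no recovery Jchain was at 10.1 CPM per kilobase, followed by Cd3g at 1.67, Cd3e at 1.53, Nkg7 at 1.14, Gzma at 1.09, Cd79a at 1.05, Cd4 at 0.971, Cd79b at 0.733 and Cd8a at 0.447. The genes from Cd3g to Cd79a rest on 23 to 51 reads each, and their counting intervals overlapped. In the control after 7 days the order was another, with Cd4 highest at 0.87, then Cd79b at 0.315, Jchain at 0.252, Cd3e at 0.24, Nkg7 at 0.227 and Cd79a at 0.206. Cd3g, Gzma and Cd8a had at most 1 read there.

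Ptprc encodes CD45, a phosphatase on all leukocytes, and serves as a measure of leukocyte RNA within each library. It had 774 and 131 reads in the OGT-KO-labelled and control libraries with no recovery (33.8 and 6.16 CPM), and 715 and 51 after 7 days (31.7 and 2.55 CPM). Its ratios of 5.49 (4.56 to 6.66) and 12.4 (9.33 to 16.8) were above those of most of the markers. Relative to Ptprc, the summed T cell markers without Cd4 were at 0.939 of the control in the OGT-KO-labelled library with no recovery (0.567 to 1.61) and 0.526 after 7 days (0.233 to 1.35), and both intervals include 1. The cytotoxic pair was at 0.542 at both time points (0.288 to 1.07 and 0.201 to 1.84).

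Other markers were lower relative to Ptprc. Cd4 was 3.68-fold lower (2.34 to 5.72) without recovery and 19.4-fold lower (11.4 to 33.0) after 7 days. Between the labels it went from 32.8 to 8.91 and from 106 to 5.45 reads per 100 Ptprc reads. In the control after 7 days Cd4 had 54 reads against 51 of Ptprc, or 0.87 against 0.499 CPM per kilobase. Which cells these Cd4 reads came from was not tested. The B cell receptor chains were 2.2-fold lower (1.24 to 3.79) and 5.26-fold lower (2.52 to 10.5). Of the lineage sums only Jchain was higher relative to Ptprc after 7 days, by a factor of 2.82 (1.25 to 7.46), while with no recovery the factor was 1.16 (0.803 to 1.7). Set against the summed pan-leukocyte list instead, a comparison added after the values were seen, Jchain was higher by 1.4 (1.02 to 1.95) and 4.57 (2.18 to 11.5), and the B cell chains were at 0.546 (0.329 to 0.939) and 0.308 (0.166 to 0.602) of the control.

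**Figure D3:**
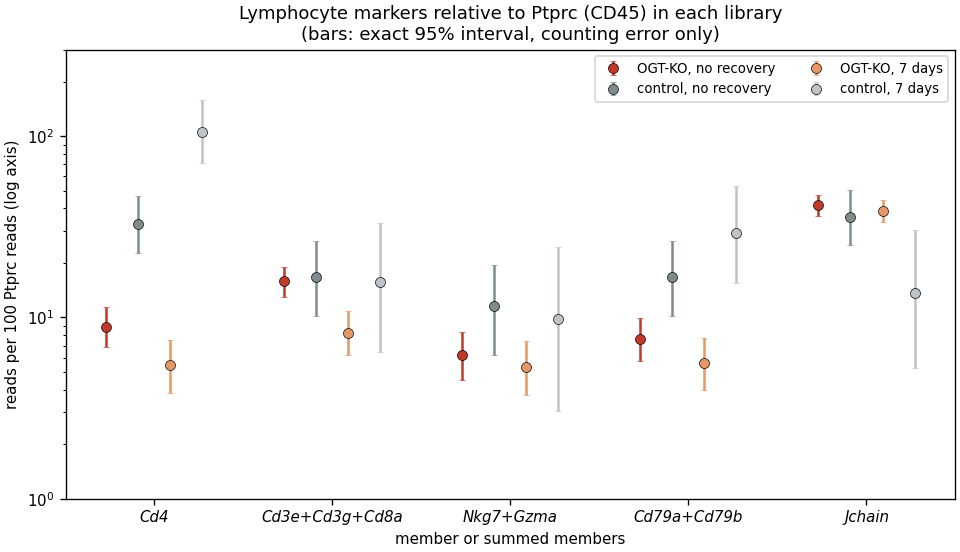
Reads of Cd4 and of the summed markers of each lineage per 100 reads of Ptprc in the same library, on a log axis with exact 95% intervals for counting error. Cd4 stood at 32.8 and 106 in the controls against 8.91 and 5.45 in the OGT-KO-labelled libraries, while the intervals of the other T cell markers overlapped between the labels at each time point.

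With time, few markers passed the 2-fold call on log2(CPM + 0.5). In the controls 1 of 9 was lower after 7 days than with no recovery, Jchain, and 0 were higher, against 1.71% of all genes lower and 0.41% higher. Cd3g, Cd8a, Nkg7, Gzma and Cd79a were under 0.5 CPM in the control with no recovery and could not be called lower there. By the ratio of CPM, Cd3g was 7.52-fold lower (1.01 to 334) and Gzma 5.64-fold lower (0.684 to 259) in the control after 7 days. Each of these had 1 read after 7 days. Only Cd4 had a higher level, at a ratio of 1.34 (0.879 to 2.04). Jchain was 6.31-fold lower (2.83 to 16.5) in the control after 7 days. In the OGT-KO-labelled libraries 0 of 9 passed in either direction, against 1.16% of all genes lower and 1.65% higher, and the ratio of Jchain was 0.872 (0.74 to 1.03). Cd3e, Cd3g, Cd4 and Cd79a had lower levels after 7 days there by 2.01-fold (1.22 to 3.39), 2.41-fold (1.31 to 4.61), 1.75-fold (1.16 to 2.66) and 2.47-fold (1.29 to 4.96), without passing the call. Cd8a was lower by 1.75-fold (0.956 to 3.32) and Gzma by 1.9-fold (0.935 to 4.04), with intervals that include 1. Nkg7 and Cd79b did not follow, each with a ratio of 1.1 (0.6 to 2.03 and 0.606 to 2.0). By limma 0 genes differed with time over both labels, with 976 at an unadjusted p under 0.05, and by edgeR 0, with 929.

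Longer lists of the same lineages gave the wider pathway, as far as their genes were listed in the table. Of 34 further T cell genes 18 were listed and 15 were past the filter. With no recovery 8 of these were higher and 0 lower, and after 7 days 4 were higher and 0 lower, with medians of 1.12 and 0.59 (0.65 and 0.27 under median ratio scaling). Of all genes 36.8% and 35.7% were higher, with medians of 0.70 and 0.66, and of those at 0.5 to 10 CPM 59.1% and 59.2%, with medians of 1.25 and 1.30, so the counts and medians of the T cell list lay below those of other low genes at both time points. Themis, a signalling protein of thymocytes and T cells, was at 5.16 against 0.564 CPM without recovery and 9.31 against 1.0 CPM after 7 days (limma adjusted p = 0.000276). Lck, the kinase that acts first at the T cell receptor, was at 3.19 against 0.564 CPM and 2.84 against 0.551 CPM (limma adjusted p = 0.00139). Ccr7, a homing receptor of naive T cells, had 29 and 31 reads in the OGT-KO-labelled libraries, and 6 and 0 in the controls (limma adjusted p = 0.00478).

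Zap70, Foxp3, Tcf7 and Cd247 were, with Themis, the T cell genes of the list with the most reads, and these 4 did not pass the test between the labels. Median ratio scaling turned the log2 differences of Zap70 and Cd247 after 7 days to -0.55 and -0.10, and those of Tcf7 at both time points to -0.63 and -0.23. Zap70, a kinase of the T cell receptor, was at 5.51 against 10.3 CPM without recovery and 6.69 against 6.26 CPM after 7 days (limma adjusted p = 0.252). Foxp3, the factor of regulatory T cells, was at 4.5 against 6.92 CPM and 5.72 against 5.96 CPM (limma adjusted p = 0.264). Tcf7, a factor of naive and memory T cells, was at 4.81 against 4.75 CPM and 8.51 against 6.26 CPM (limma adjusted p = 0.409). Cd247, the zeta chain of CD3, was at 3.19 against 1.88 CPM and 3.5 against 2.35 CPM (limma adjusted p = 0.0743). In the control with no recovery Zap70, Foxp3 and Tcf7 had 218, 147 and 101 reads, against 13 of Cd3e. In the control after 7 days they had 125, 119 and 125 reads, against 7 of Cd3e. Which cells the reads of Zap70, Foxp3 and Tcf7 came from was not tested. These genes are part of the medians given for the T cell list.

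Of 24 further NK and cytotoxic genes only 6 were listed, and 5 of the 6 were higher at each time point, with 0 lower and a median of 1.33 at both, against 36.8% and 35.7% of all genes, and 59.1% and 59.2% of the genes at 0.5 to 10 CPM, whose medians of 1.25 and 1.30 were close to it. Ccl5, a chemokine of activated T and NK cells, was at 4.77 against 0.8 CPM without recovery and 3.23 against 0.25 CPM after 7 days (limma adjusted p = 0.000599). Klrd1, the CD94 receptor of NK cells, had 29 and 3 reads and then 25 reads and 1 read (limma adjusted p = 0.0033). Il2rb, a chain of the receptors for interleukins 2 and 15, was at 5.16 against 2.31 CPM and 3.94 against 0.851 CPM (limma adjusted p = 0.00489), and Ctsw, a protease of cytotoxic cells, at 2.8 against 0.941 CPM and 2.44 against 0.851 CPM (limma adjusted p = 0.00671). Klrk1, the receptor NKG2D, did not pass (1.62 against 1.13 CPM and 1.73 against 0.651 CPM, limma adjusted p = 0.0732), and its difference with no recovery turned from 0.38 to -0.15 under median ratio scaling.

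Of 33 further B and plasma cell genes 21 were listed and 20 past the filter. With no recovery 13 were higher and 1 lower, and after 7 days 12 higher and 1 lower, with medians of 1.48 and 1.95, or 1.93 with the gene that had no reads in a control set to 3 reads. The shares higher were 36.8% and 35.7% of all genes and 59.1% and 59.2% of those at 0.5 to 10 CPM. The counts of this list were thus near those of low genes, while its medians lay above theirs of 1.25 and 1.30. Ly6d, Cd72 and Ralgps2 averaged more than 10 CPM and are not among the low genes. Blnk, the adaptor below the B cell receptor, was at 8.57 against 0.8 CPM and 7.75 against 1.4 CPM (limma adjusted p = 0.00043). Cd180, a Toll-like receptor relative of B cells and macrophages, was at 6.69 against 1.51 CPM and 8.15 against 0.551 CPM (limma adjusted p = 0.00102), and Cd37, a tetraspanin of mature B cells, at 8.97 against 3.1 CPM and 8.29 against 0.851 CPM (limma adjusted p = 0.00227). Cd72, a B cell coreceptor, was at 43.1 against 23.3 CPM and 37.9 against 19.7 CPM (limma adjusted p = 0.00156), and Ralgps2, a nucleotide exchange factor, at 25.5 against 16.3 CPM and 27.7 against 19.3 CPM (limma adjusted p = 0.0139). Median ratio scaling turned the differences of Ralgps2 to -0.07 and -0.16.

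Ly6d and Derl3 stood apart in this list. Ly6d, a membrane protein of early B cells that is also known in epithelia, was at 182 against 1.32 CPM without recovery and 366 against 0.601 CPM after 7 days (limma adjusted p = 5.2e-05). Derl3, a protein of the endoplasmic reticulum that plasma cells and other secreting cells use to degrade misfolded proteins, was at 1.44 against 12.6 CPM and 0.886 against 3.6 CPM. It was the only listed gene of the lineage called lower at both time points (limma adjusted p = 0.00162), where Jchain was higher.

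**Figure D4:**
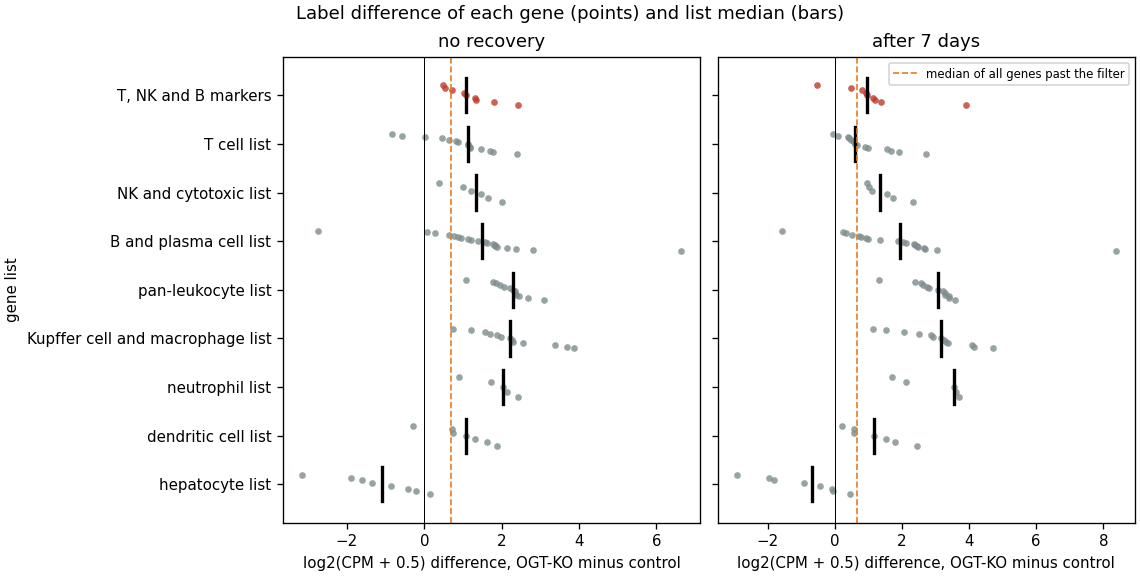
Log2(CPM + 0.5) difference of every gene past the filter in each list, OGT-KO-labelled library minus control, with no recovery on the left and after 7 days on the right, where points are genes, black bars list medians and the dashed line the median of all genes. The T, NK and B markers had medians of 1.07 and 0.97, below those of the pan-leukocyte list at 2.30 and 3.07.

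Markers of other leukocytes and liver cells moved with the labels too, and their counts stand beside 36.8% and 35.7% of all genes higher and 4.78% and 3.51% lower. All 13 pan-leukocyte genes were higher at both time points and summed to 413 and 341 CPM in the OGT-KO-labelled libraries against 90.5 and 44.5 CPM in the controls. Laptm5, a lysosomal protein of leukocytes, was at 116 against 23.2 CPM without recovery and 88.5 against 9.01 CPM after 7 days, and Ptpn6, the phosphatase SHP-1, at 47.4 against 22.1 CPM and 39.6 against 15.8 CPM. Of 13 Kupffer cell and macrophage genes 12 were higher without recovery and 13 after 7 days, with sums of 1340 and 1010 CPM against 318 and 121 CPM. C1qa, a complement chain of macrophages, was at 221 against 47.1 CPM and 168 against 18.2 CPM, and Csf1r, the receptor for their growth factor, at 195 against 52.4 CPM and 164 against 22.2 CPM.

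Of 5 neutrophil genes 4 and then 5 were higher, with sums of 30.7 and 46.1 CPM against 5.55 and 2.25 CPM. Csf3r, the G-CSF receptor, was at 15.5 against 3.1 CPM and 21.4 against 1.2 CPM, and S100a9 at 6.95 against 0.894 CPM and 10.7 against 0.451 CPM. Of 7 dendritic cell genes 4 were higher at each time point, with sums of 145 and 153 CPM against 160 and 125 CPM, near the 59.1% and 59.2% of genes at 0.5 to 10 CPM. Bst2 was at 123 against 150 CPM and 134 against 117 CPM, Zbtb46 at 10.6 against 6.21 CPM and 7.89 against 5.16 CPM, and Flt3 had 0 reads in the control after 7 days. Under median ratio scaling Bst2 after 7 days was at -0.48 and Zbtb46 at -0.07 on the log2 scale. Zbtb46 is a factor of classical dendritic cells, and Flt3 the receptor for their growth factor.

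Genes of the other cells of the tissue varied in how many passed 2-fold. All 9 stellate cell genes and all 5 bile duct genes were higher at both time points, with sums of 3440 and 4240 CPM against 243 and 173 CPM for the former and 1150 and 1460 CPM against 53.7 and 69.6 CPM for the latter. Of 8 endothelial genes 4 and then 3 were higher, with sums of 514 and 376 CPM against 254 and 172 CPM, which is near the share of all genes. Of 8 hepatocyte genes 4 and then 3 were lower and 0 higher, with sums of 53800 and 65200 CPM against 78400 and 87500 CPM, and Apoa1, a plasma lipoprotein gene, fell from 9260 to 3050 CPM and from 11600 to 2960 CPM between the labels. Of 6 erythrocyte and platelet genes 1 was higher and 1 lower at each time point, with sums of 110 and 162 CPM against 350 and 271 CPM. The list medians kept their sign under upper quartile and median ratio scaling, except that of the erythrocyte and platelet list after 7 days, which went from 0.50 to -0.16 with median ratio scaling. The part of these cells, and of blood left in the tissue, in the levels of the lymphocyte markers was not tested.

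The genes with patterns nearest to each lineage sum were found outside all lists, by the distance between centred log2(CPM + 0.5) values over the 4 libraries among 13658 genes. Nearest to the T cell sum, which includes Cd4, were BC049762 (distance 0.0913), Slc12a4 (0.124) and Syp (0.136). In the control after 7 days 54 of the 62 reads of this sum were from Cd4, so these neighbours do not describe the CD3 chains and Cd8a. For the cytotoxic pair they were Ccm2l (0.0128), Pik3r3 (0.0464) and Plxnc1 (0.0858), and for the B cell chains Ppm1f (0.0161), Rrp36 (0.0315) and Esco1 (0.0418). Jchain had no neighbour as close, with Rgs5 at 0.252, Tyrobp at 0.275 and Sla at 0.299. Rgs5 is known from pericytes, Tyrobp is an adaptor of myeloid and NK cell receptors, and Sla is an adaptor of lymphocytes and myeloid cells. With only 4 libraries many genes share a pattern, and the distances describe these libraries alone.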

How the data were processed

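RNA was extracted from liver with TRIzol, and mRNA libraries were made with the Tecan universal plus kit, 1 per condition. The authors deposited CPM, in columns that each add up to 1000000, in a table named for DESeq2 normalization. The submitters' processing notes list STAR, DESeq2 and GRCm39 with no versions or roles, and the counter, strand setting and gene filter are not given in the sources used here. Dividing by the value of 1 read returned whole numbers, within 0.02 reads, for 100.0% of values in each library, 19972699 to 22866431 reads in all.

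Levels carry exact Poisson intervals and ratios exact conditional binomial intervals. Genes averaging 0.5 CPM or more were compared on log2(CPM + 0.5), called at 2-fold, and tested with limma 3.58.1 (trend, time and label as terms, Benjamini-Hochberg adjustment, threshold 0.05) in R 4.3.3. Alternatives were edgeR 4.0.16 (quasi-likelihood, TMM) and DESeq2 1.42.0 on recovered reads, which called 4157 genes higher and 3360 lower, and 3022 and 2634, for the label, other pseudocounts (0.1 and 1 CPM), no filter or a filter at 10 CPM, thresholds of 1.5-fold and 4-fold, upper quartile and median ratio scaling, no time term, and levels relative to Ptprc. The steps were tested on simulated reads: of 193 genes changed 4-fold among 13633, limma and edgeR recovered 193 in the label comparison. They also called 14 and 10 unchanged genes. The simulation held few changed genes and no shift of most genes between the labels, unlike these data. It therefore cannot show how the calls behave under such a shift.

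The markers and lists were chosen with earlier results of these data known. Genes named are all markers, Ogt, the 5 genes with the most reads of each T, NK and B list together with up to 3 highest and 3 lowest called at both time points, 2 of each other list, and 3 nearest patterns for each lineage. Flt3 was named outside this rule, after its values were seen, because it had 0 reads in 1 control. Promoter windows and exon lengths came from RefSeq and GENCODE M21 on GRCm38, another build than the submitters', and no coordinates were converted. Other steps ran in Python 3.11 (numpy, pandas, scipy).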

Additional observations from a re-analysis of the deposited data

Results flagged for a closer look

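Among the genes named, 5 had label differences of opposite sign at the time points, with log2(CPM + 0.5) differences given here as the OGT-KO-labelled library minus the control. With 1 library per condition the difference between the time points was not tested against the spread between replicates, and the intervals given in the text for Cd4 cover counting error only. Of all genes compared, 8.61% had opposite signs.

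Cd4 had a difference of 0.48 with no recovery and of -0.52 after 7 days. Zap70 had -0.84 and 0.09. Outside the lymphocyte genes, the beta globin gene Hbb-bs had -0.52 and 0.39, Bst2, a membrane protein of plasmacytoid dendritic cells and of cells exposed to interferon, had -0.28 and 0.20, and the targeted gene Ogt had -0.22 and 0.48. None of these values reached the 2-fold threshold. Under median ratio scaling all 5 were negative at both time points, with Cd4 at -0.12 and -1.08 and, after 7 days, Zap70 at -0.55, Hbb-bs at -0.29, Bst2 at -0.48 and Ogt at -0.20.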

How the results depend on the processing

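No paired analysis was possible because the labels carry no replicate numbers and each condition has 1 library, and for the same reason no library was left out, since the fit would keep no residual degree of freedom. By scaling, the number of markers higher in the OGT-KO-labelled library fell from 6 to 3 (upper quartile) and 2 (median ratio) with no recovery, and from 4 to 2 under either after 7 days, where median ratio scaling also made 1 marker, Cd4, lower. For the label over both time points, limma called 8485 genes higher and 1213 lower. These counts became 5099 and 2551 (limma, upper quartile) and 4114 and 3652 (limma, median ratio). Other tests on recovered reads gave 4157 and 3360 (edgeR) and 3022 and 2634 (DESeq2). With a filter at 10 CPM, which tests 8963 genes and none of the markers, limma called 5094 higher. The share of calls that were higher was 87.5% in the main fit. It was 66.7% with upper quartile scaling, 53.0% with median ratio scaling, 55.3% with edgeR, 53.4% with DESeq2 and 83.3% with the filter at 10 CPM. Markers called went from 6 to 3 (Cd3g, Cd8a and Jchain) with median ratio scaling and with edgeR, and to 2 (Cd8a and Jchain) with DESeq2.

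The summed T cell ratio moved from 2.73 to 1.96 and 1.66 with no recovery under upper quartile and median ratio scaling, and turned from 1.4 to 0.999 and 0.87 after 7 days. The Jchain ratio with no recovery moved from 6.37 to 4.56 and 3.87. Relative to Ptprc the ratios with no recovery and after 7 days were 0.497 and 0.113 for T, 0.542 and 0.542 for the cytotoxic pair, 0.454 and 0.19 for B, and 1.16 and 2.82 for Jchain. Relative to the pan-leukocyte sum, added after the data were seen, they were 0.599 and 0.182, 0.652 and 0.877, 0.546 and 0.308, and 1.4 and 4.57. Leaving Cd4 out of the T sum, also added later, gave 5.16 and 6.53.

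A pseudocount of 0.1 CPM gave 7 markers higher after 7 days and 3 and 2 lower with time in the control and OGT-KO labels. A pseudocount of 1 CPM gave 3 and 1 higher with no recovery and after 7 days. At 1.5-fold 7 were higher after 7 days and 2 and 4 lower with time in the control and OGT-KO labels, and at 4-fold 1 was higher at each time point and 0 were lower with time in the control. Over the T, NK and B lists together, 26 genes higher with no recovery became 17 with a pseudocount of 1 CPM or either scaling, 6 at 4-fold and 1 at 10 CPM, and 1 lower became 3 under either scaling, 2 at 1.5-fold and 0 at 10 CPM. After 7 days 21 higher became 12 at 4-fold and 1 at 10 CPM, and 1 lower became 0 at both. The cause of these changes was not tested. Depth limits most markers: outside Jchain and Cd4, no marker had more than 13 reads in a control, and no value carries replicate error.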

Other observations

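Genes of stellate cells and bile ducts differed between the labels. Col3a1 and Col1a1, fibrillar collagens made by activated stellate cells, were at 1210 against 50.4 CPM and 875 against 21.0 CPM with no recovery, and at 1550 against 38.4 CPM and 1190 against 16.5 CPM after 7 days (limma adjusted p = 3.2e-05 and 2.7e-05). Among bile duct genes, Spp1, which encodes osteopontin, was at 977 against 41.0 CPM and 1240 against 52.1 CPM (limma adjusted p = 1.4e-05), and Epcam, an adhesion protein of biliary epithelium, at 64.2 against 1.55 CPM and 82.6 against 2.35 CPM (limma adjusted p = 2.7e-05). Of the endothelial genes, Aqp1, a water channel, was at 179 against 67.6 CPM and 132 against 40.2 CPM, and Stab2, a scavenger receptor of sinusoidal endothelium, at 71.1 against 45.6 CPM and 52.0 against 33.9 CPM (limma adjusted p = 0.000191 and 0.00468). Median ratio scaling turned the log2 differences of Stab2 to -0.08 and -0.07.

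Alas2, the first enzyme of haem synthesis in erythroid cells, went the other way, at 10.1 against 213 CPM with no recovery and 24.0 against 171 CPM after 7 days (limma adjusted p = 0.000231). The beta globin gene Hbb-bs did not move with it, at 55.1 against 79.3 CPM and 80.0 against 61.0 CPM (limma adjusted p = 0.793).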
